A study of Homo sapiens with 5 samples.

Results

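The genes described here are 42 genes of the lysosome and of autophagy, among 18417 genes measured in all. They were chosen by name, not by measured values: 6 lysosomal membrane proteins, 8 cathepsins, 12 other hydrolases and proteins of the lysosomal lumen, 13 autophagy genes and the 3 MiT transcription factors TFEB, TFE3 and MITF. All 42 were measured. Each is read through 1 probe set whose platform annotation gives a single symbol, and where a gene had several (NEU1 alone), the one with the highest mean over the 5 arrays was kept.

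Each array holds RNA of 1 clone of Nalm6, a human line that was established from an acute leukaemia of early B cells. A short hairpin RNA (shRNA) against MondoA was expressed by 3 clones and a nonsense shRNA by 2 control clones, all in the same glucose-containing serum medium. Clones of a line can differ from each other whatever hairpin they carry. The p-values below set the difference between the groups against the spread of these 5 arrays within their groups. Values are RMA expression (robust multi-array average) as the authors deposited them, taken to be on the log2 scale, differences are MondoA shRNA minus control shRNA in log2 units, and errors are SD over n = 3 MondoA shRNA and n = 2 control arrays unless another is named.

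Lysosomes are acidic compartments in which hydrolases degrade proteins, sugars and lipids, behind a membrane lined by heavily glycosylated proteins. Autophagy encloses cytoplasm in a double membrane and delivers it to the lysosome. TFEB, TFE3 and MITF are basic helix-loop-helix leucine zipper factors that leave the lysosome surface for the nucleus when nutrients are short, and they activate many of these genes through an E-box, a short DNA site with the core CACGTG. MondoA, encoded by MLXIP, is of the same structural class, pairs with MLX, responds to glucose metabolites and binds pairs of E-box-like sites.

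The E-box core was looked for in promoter windows of RefSeq (build GRCh38.p14), which run from 250 bases before to 50 bases after an annotated start. Windows were found for 35 of the 42 genes (53 windows), and not for LAMP2, CTSB, CTSS, HEXA, ASAH1, PSAP and UVRAG. The core CACGTG, which reads the same on both strands, was in a window of 7 of these 35 genes (20%), namely LAMP1, MCOLN1, CD63, CTSA, CTSD, GAA and NEU1. Among all measured genes with a window the share was 10.9% of 14237. The longer TCACGTGA, which holds the core and is close to the site described for MiT factors, was in 4 of 35 (LAMP1, MCOLN1, CTSA and GAA), or 11.4%, against 1.71% of the measured genes. None of the autophagy genes with a window had either. A match is a run of letters and was not tested as a bound site.

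The stretches just before the start are shown for the 4 genes with the longer match and for CTSD, the one with the largest difference among the genes that hold the core. They are written 5′ to 3′ on the strand of the gene, and capitals mark each CACGTG. LAMP1 is on the plus strand (chr13:113297039-113297238), as are MCOLN1 (chr19:7522524-7522623), CTSA (chr20:45891235-45891334) and GAA (chr17:80101481-80101580), and CTSD is on the minus strand (chr11:1763928-1764027).
LAMP1: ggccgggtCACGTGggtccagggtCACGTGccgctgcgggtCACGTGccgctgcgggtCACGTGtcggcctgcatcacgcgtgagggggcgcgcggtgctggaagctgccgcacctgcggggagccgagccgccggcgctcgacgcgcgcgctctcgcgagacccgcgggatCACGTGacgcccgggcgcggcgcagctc
MCOLN1: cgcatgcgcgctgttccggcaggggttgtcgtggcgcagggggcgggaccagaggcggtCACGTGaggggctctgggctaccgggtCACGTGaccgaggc
CTSA: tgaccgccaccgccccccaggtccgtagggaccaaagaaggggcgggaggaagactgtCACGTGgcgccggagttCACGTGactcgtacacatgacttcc
CTSD: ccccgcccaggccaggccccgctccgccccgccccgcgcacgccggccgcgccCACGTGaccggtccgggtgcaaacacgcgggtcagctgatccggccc
GAA: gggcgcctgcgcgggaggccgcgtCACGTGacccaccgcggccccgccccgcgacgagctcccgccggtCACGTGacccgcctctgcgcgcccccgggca

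LAMP1 shows 5 cores in the 200 bases printed, 4 of them close together, and the sixth starts at base -1 and runs past the end of the stretch. MCOLN1, CTSA and GAA show 2 each within 100 bases, and CTSD shows 1.

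Whether the clones bear their labels was looked at first. MLXIP RNA was not detectably lower: it read 6.42, 6.47 and 6.29 in MondoA shRNA arrays 1, 2 and 3, against 6.42 in both control arrays, a difference of -0.03 (95% interval -0.21 to 0.16, adjusted p = 0.959 by limma). Exactly the same value was deposited for MondoA shRNA array 1 and both control arrays, and such repeats, described below, can narrow an interval. MLX, the partner of MondoA, differed by 0.22, with every MondoA shRNA array above both control arrays. TXNIP, the best known target of MondoA, differed by -0.10 and the groups overlapped. By limma the adjusted p was 0.833 for each. "MondoA shRNA" therefore names the label of an array throughout, and each direction refers to that label. Of 12 listed B-precursor markers 10 were measured, and all 10 lay above the median gene level of 4.15. Their summed log2 level was 84.3 to 86.0 in MondoA shRNA arrays and 82.8 to 83.1 in control arrays, and their part in the results below was not tested. At an unadjusted p under 0.05 by limma, CD22 (1.27), CD79A (0.91) and CD79B (0.25) were higher. RAG1 had a difference of -0.45 with no overlap, BLNK one of -0.16 and VPREB3 one of -0.11. Macrophages are rich in lysosomes, but of 11 monocyte and macrophage markers measured only MARCO and MSR1 lay above that level, and CD14, LYZ, CSF1R, ITGAM and CD163 lay below it in both groups. The summed log2 level of these 11 was 35.97 to 36.93 in MondoA shRNA arrays and 36.65 to 36.81 in control arrays. MSR1 alone among them had no overlap, at 4.06, 4.68 and 4.46 in MondoA shRNA arrays 1, 2 and 3, against 5.21 and 4.84 in control arrays 1 and 2. Its difference was -0.63.

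No lysosome or autophagy gene passed the test between the groups. By limma with Benjamini-Hochberg adjustment over all genes, 0 of 42 had an adjusted p under 0.05, where 0% of all genes did, and the lowest adjusted p among the 42 was 0.833. At an unadjusted p under 0.05 there was 1 of 42, BECN1, which was lower, against 3.73% of all genes. Among the 9208 genes above the median level, 215 were higher and 328 lower at that p by limma. In 6 of 42 the groups lay 0.2 or more apart, against 11.9% of all genes, and none reached 0.5. Of the 9208 genes above the median level, to which 36 of the 42 belong, 1817 lay that far apart. The differences of the 42 ran from -0.24 to 0.33, with 22 above 0, 19 below and ATG9A at 0.

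**Figure D1:**
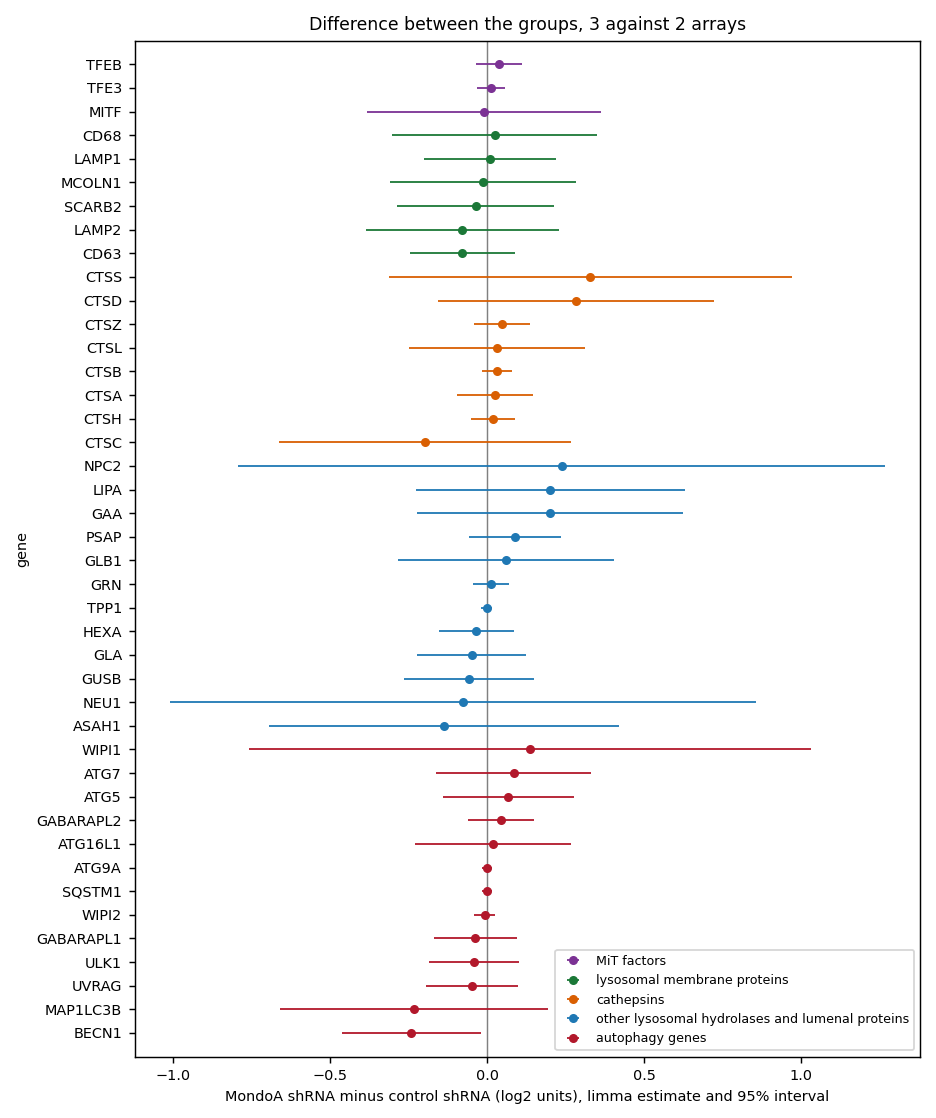
MondoA shRNA minus control shRNA for each of the 42 genes in log2 units (horizontal axis), grouped and coloured by role, with points for the limma estimate and bars for its 95% interval (3 against 2 arrays). Only the interval of BECN1, from -0.46 to -0.02, does not cover 0, and the widest, those of NPC2, NEU1 and WIPI1, reach past 1 log2 unit on one side.

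Lysosomal enzymes and membrane proteins were set beside autophagy genes and MiT factors, and both sets had medians near 0. The 26 genes of the first set had a median difference of 0.02, with 15 above 0 and 11 below. The 16 of the second set had a median of 0.00, with 7 above 0, 8 below and 1 at 0. The median over all 18417 genes was 0.00. These medians are descriptions, and the difference between the sets was not tested. For 39 of the 42 the 95% interval lay within -1 to 1, that is, within a 2-fold change either way. The median half-width was 0.21 log2 units. Over all genes 17661 of 18417 intervals lay within -1 to 1, with a median half-width of 0.20. In 22 of the 42 at least 3 arrays held equal values, which narrows an interval. The intervals can therefore understate how large a difference these arrays could have missed.

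None of the MiT factors differed by more than 0.04. TFEB read 4.99, 4.96 and 4.95 in MondoA shRNA arrays 1, 2 and 3, against 4.96 and 4.90 in control arrays 1 and 2, a difference of 0.04 (95% interval -0.04 to 0.11, adjusted p = 0.833 by limma). TFE3 read 4.38, 4.42 and 4.38 in the MondoA shRNA arrays, against 4.38 in both control arrays, a difference of 0.01. For both factors the groups overlapped. MITF, the family member best known from melanocytes, read 2.99, 2.62 and 2.82 in the MondoA shRNA arrays, against 2.82 in both control arrays, a difference of -0.01. Its MondoA shRNA arrays lay on both sides of the control value, and its level was below the median gene, where it was not assessed whether the signal exceeds background.

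Membrane proteins of the lysosome had the smallest differences of the lysosomal groups, from -0.08 to 0.02. LAMP1, with LAMP2 the most abundant protein of the lysosomal membrane, read 7.68, 7.77 and 7.89 in MondoA shRNA arrays 1, 2 and 3, against 7.77 in both control arrays. Its difference of 0.01 had a 95% interval from -0.20 to 0.22 and ran from -0.05 without MondoA shRNA array 3 to 0.06 without MondoA shRNA array 1. LAMP2, also the receptor of chaperone-mediated autophagy, read 7.67, 7.87 and 7.83 in the MondoA shRNA arrays, against 7.98 and 7.75 in control arrays 1 and 2, a difference of -0.08. Leaving out 1 array moved it between -0.19 (without control array 2) and 0.03 (without control array 1), and in LAMP1 and LAMP2 alike the groups overlapped. The tetraspanin gene CD63 read 7.42, 7.28 and 7.42 in the MondoA shRNA arrays, against 7.42 and 7.49 in control arrays, a difference of -0.08. In CD63, 3 arrays held the same value, and the difference ran from -0.11 without control array 1 to -0.03 without MondoA shRNA array 2. SCARB2, which carries glucocerebrosidase to the lysosome, read 6.02, 6.20 and 5.96 in the MondoA shRNA arrays, against 6.12 and 6.07 in control arrays, a difference of -0.04 that ran from -0.10 without MondoA shRNA array 2 to 0.01 without MondoA shRNA array 3. The calcium channel gene MCOLN1 differed by -0.01 and the sialomucin gene CD68 by 0.02.

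Among the cathepsins, 7 of 8 differences were above 0 and none passed, where 9046 of all 18417 genes were above 0. In 6 of the 8 at least 3 arrays held equal values. CTSS, a cysteine protease that cleaves the invariant chain in antigen-presenting cells, read 6.18, 6.65 and 6.18 in MondoA shRNA arrays 1, 2 and 3, against 6.18 and 5.84 in control arrays 1 and 2. Its difference of 0.33 (95% interval -0.31 to 0.97, adjusted p = 0.833 by limma) was the largest of the 42. It came from 1 high and 1 low array, since the other 3 arrays held the same value, and it ran from 0.16 without control array 2 (0.17 without MondoA shRNA array 2) to 0.50 without control array 1. CTSD, the main aspartic protease of the lysosome, read 7.62, 7.88 and 7.96 in the MondoA shRNA arrays, against 7.41 and 7.67 in control arrays, a difference of 0.28 (95% interval -0.16 to 0.72). MondoA shRNA array 1 lay between the control arrays, so the groups overlapped, and the difference ran from 0.15 without control array 1 to 0.41 without control array 2.

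CTSC, which activates serine proteases of immune cells, was the only cathepsin below 0. It read 7.88, 8.27 and 8.27 in MondoA shRNA arrays 1, 2 and 3, against 8.41 and 8.27 in control arrays 1 and 2, a difference of -0.20. MondoA shRNA array 1 alone was low, and without it the difference was -0.07, against -0.13 without control array 1 and -0.27 without control array 2. The carboxypeptidase gene CTSA differed by 0.02 and the cysteine protease genes CTSB, CTSH, CTSL and CTSZ by 0.02 to 0.05. Without MondoA shRNA array 2 CTSA was at -0.01 and CTSH at 0.00, and without MondoA shRNA array 3 CTSL was at -0.05. With any other array left out, CTSA, CTSH and CTSL stayed above 0, as CTSB and CTSZ did throughout. CTSH, CTSL and CTSZ lay below the median gene level in every array.

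The other hydrolases and lumenal proteins were split evenly, with 6 of 12 above 0 and 6 below. NPC2, which hands cholesterol to NPC1 for export from the lysosome, had the widest spread of the 42. It read 7.85, 8.81 and 8.0 in MondoA shRNA arrays 1, 2 and 3, against 8.0 and 7.97 in control arrays 1 and 2, a difference of 0.24 (95% interval -0.79 to 1.27). Array 2 of the MondoA shRNA group was the high one, and the difference was -0.06 without it and 0.42 without MondoA shRNA array 1. LIPA, the acid lipase that frees cholesterol and fatty acids, read 7.18, 7.54 and 7.27 in the MondoA shRNA arrays, against 7.23 and 7.02 in control arrays, a difference of 0.20 that became 0.10 without MondoA shRNA array 2 or without control array 2 and 0.31 without control array 1. GAA, the acid glucosidase that degrades glycogen, read 5.15, 4.84 and 4.79 in the MondoA shRNA arrays, against 4.64 and 4.80 in control arrays. Its difference of 0.20 became 0.09 without MondoA shRNA array 1, 0.12 without control array 1 and 0.28 without control array 2.

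NEU1 and ASAH1 were added for their spread, after their values were seen. NEU1, a sialidase, read 7.29, 8.04 and 8.12 in MondoA shRNA arrays 1, 2 and 3, against 7.98 and 7.81 in control arrays 1 and 2. Its difference was -0.08 with all arrays, 0.19 without MondoA shRNA array 1, the low one, and 0.01 without control array 1. It was -0.23 without MondoA shRNA array 3, -0.19 without MondoA shRNA array 2 and -0.16 without control array 2, so its direction turned with the arrays kept. Its 2 other single-symbol probe sets hold identical values on every array and gave -0.12, with the same array low. ASAH1, the acid ceramidase, read 8.13, 8.42 and 7.88 in the MondoA shRNA arrays, against 8.35 and 8.21 in control arrays, a difference of -0.14. This was -0.01 without MondoA shRNA array 3, -0.07 without control array 1, -0.21 without control array 2, -0.28 when MondoA shRNA array 2 was omitted and -0.31 with array weights. The remaining 7 genes of this role lay between -0.06 and 0.09. PSAP, which encodes the precursor of the saposins that assist lipid hydrolysis, differed by 0.09 and the galactosidase gene GLB1 by 0.06. GRN, encoding progranulin, differed by 0.01, the peptidase gene TPP1 by 0.00, and the glycosidase genes HEXA, GLA and GUSB by -0.03, -0.05 and -0.06.

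**Figure D2:**
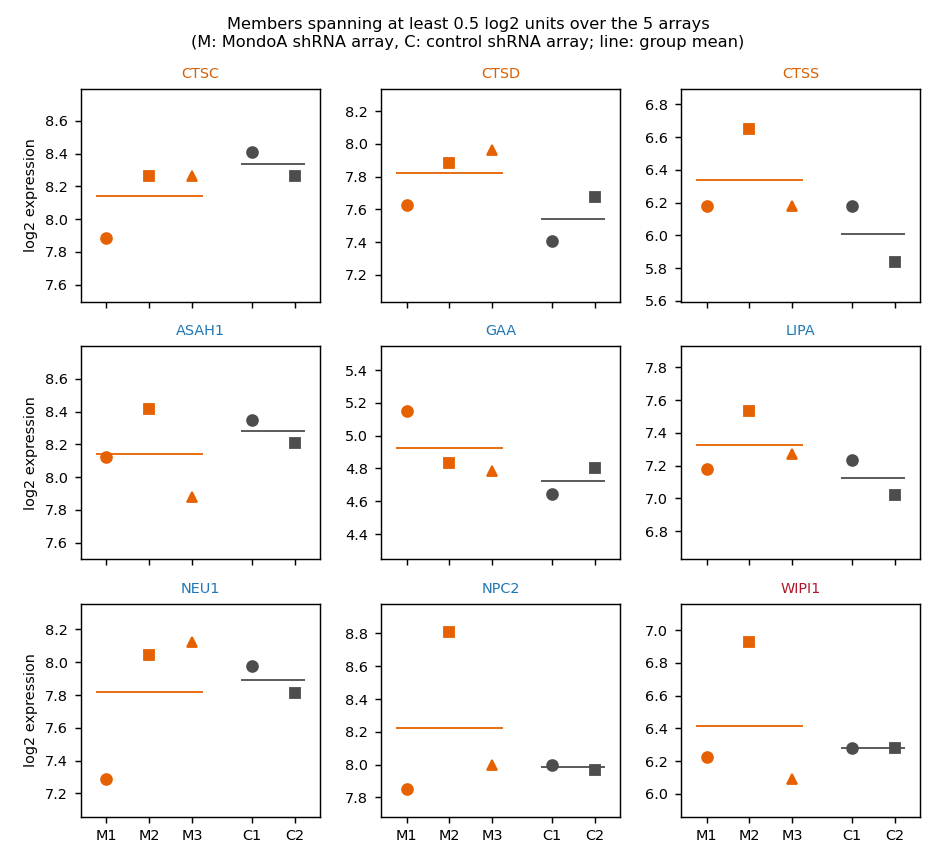
Log2 expression (vertical axes, 1.3 units tall in each panel) of the 9 genes whose highest and lowest array were at least 0.5 apart, with the 3 MondoA shRNA arrays (M1 to M3) left of the 2 control arrays (C1, C2) and a line at each group mean. M2 is the highest array in NPC2, WIPI1, CTSS, LIPA and ASAH1. M1 is the lowest in NEU1, CTSC and NPC2 and the highest in GAA.

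Of the autophagy genes, BECN1 had the lowest p. It encodes Beclin 1, the regulatory subunit of the lipid kinase complex that starts autophagosome formation, and read 6.92, 6.92 and 6.73 in MondoA shRNA arrays 1, 2 and 3, against 7.10 and 7.09 in control arrays 1 and 2. All 3 MondoA shRNA arrays were below both control arrays. This came to -0.24 ± 0.08 (SE; 95% interval -0.46 to -0.02), and by limma the unadjusted p was 0.0390 and the adjusted p 0.833, so it did not pass. With 1 array left out it ran from -0.27 to -0.18. MAP1LC3B, the lipid-coupled protein that coats autophagosomes, also had no overlap: it read 4.17, 3.76 and 4.06 in the MondoA shRNA arrays, against 4.21 and 4.25 in control arrays, a difference of -0.23 (95% interval -0.66 to 0.19). It was -0.11 without MondoA shRNA array 2 and -0.32 without MondoA shRNA array 1, and its mean over the arrays lay just below the median gene level. These were the only 2 of the 42 genes whose groups did not overlap, against 10.0% of all genes. Among the 9208 genes above the median level, to which 36 of the 42 belong, 665 had no overlap on the higher and 770 on the lower side.

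WIPI1, which binds the lipid that the Beclin 1 complex makes, read 6.23, 6.93 and 6.09 in MondoA shRNA arrays 1, 2 and 3, against 6.28 in both control arrays. Its difference of 0.14 became -0.12 without MondoA shRNA array 2, the high one, and ran from 0.14 to 0.30 with any other array left out. WIPI2, its relative, differed by -0.01. The kinase gene ULK1, which starts the pathway, differed by -0.04, and ATG9A, the membrane protein of autophagy seed vesicles, by 0.00. ATG5, ATG7 and ATG16L1, whose products couple LC3 proteins to lipid, differed by 0.07, 0.08 and 0.02. The LC3 relatives GABARAPL1 and GABARAPL2 differed by -0.04 and 0.04. SQSTM1, the cargo receptor p62, differed by 0.00 and the Beclin 1 partner gene UVRAG by -0.05.

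**Figure D3:**
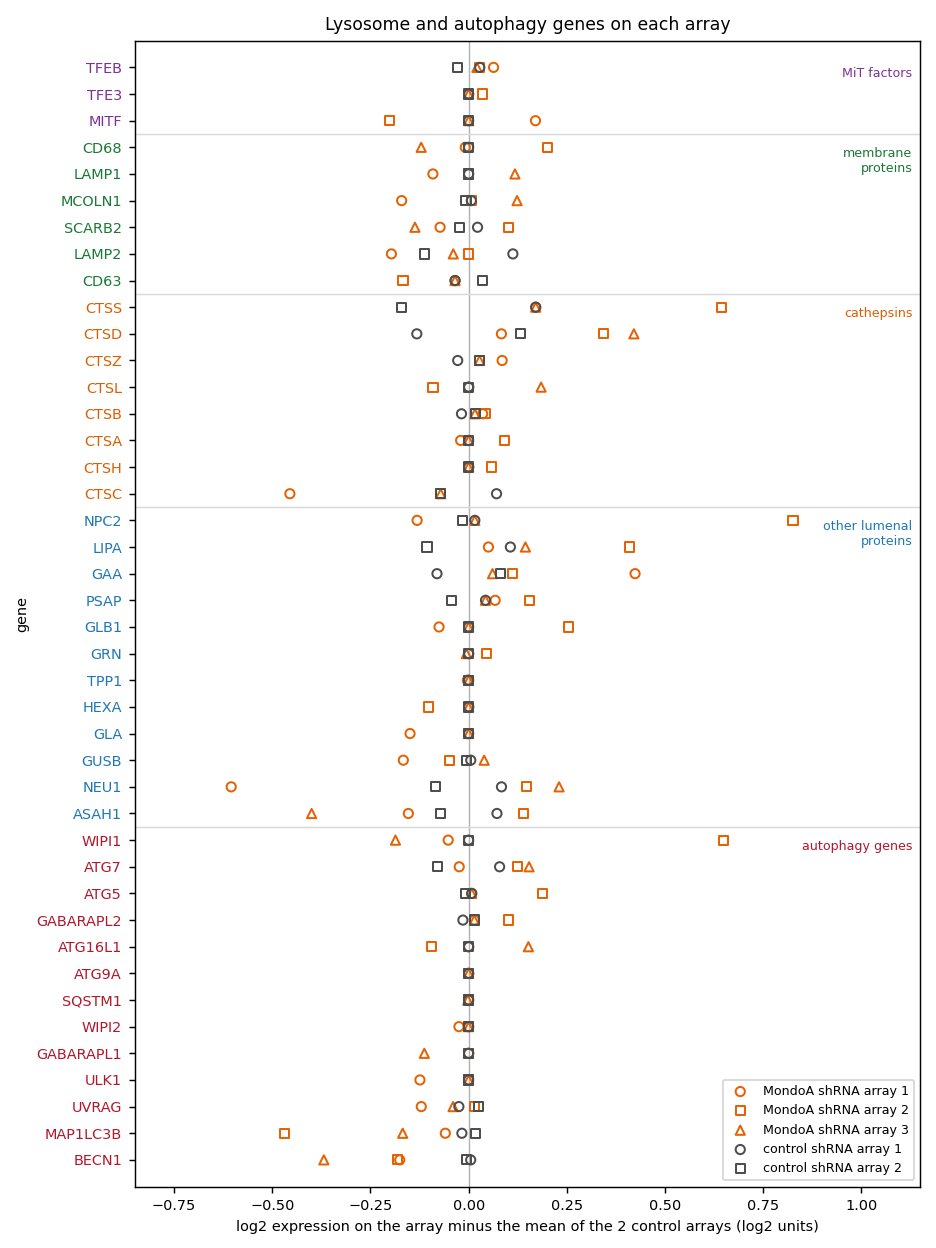
Log2 expression on each array minus the mean of the 2 control arrays (horizontal axis, log2 units) for the 42 genes, with orange symbols for MondoA shRNA arrays 1 to 3 and grey symbols for control arrays 1 and 2. In BECN1 and MAP1LC3B all orange symbols lie left of both grey ones, in the other genes the colours overlap, and many symbols stack on 0 where arrays hold equal values.

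Equal values limit what the flat genes show. In 22 of the 42 genes (52.4%) at least 3 arrays held exactly the same deposited value, against 54.0% of all genes and 35.5% of genes above the median level. ATG9A held 5.36 on all 5 arrays, and TFE3, CTSH, HEXA, GLA, TPP1, SQSTM1, GABARAPL1, ULK1 and WIPI2 held 1 value on 4 of them. Their SD among control arrays was 0.00. Intervals for such genes are narrow because the values repeat, as for TPP1 (-0.02 to 0.02), and how far the repeats come from the summarising of probes was not tested. No value was shared between any arrays in 13 of the 42.

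The spread among the MondoA shRNA arrays was set beside that among the control arrays and beside the difference between the groups. SD among the MondoA shRNA arrays was larger than among the control arrays in 34 of 42 genes and smaller in 7, with medians of 0.10 and 0.01. An SD among control arrays is 0.00 wherever both hold the same value, which lowers the control median. The range over the 3 MondoA shRNA arrays was larger than the difference between the groups in 39 of 42, the exceptions being BECN1, CTSB and ATG9A. That range was also the larger in 12447 of all 18417 genes and in 6980 of the 9208 genes above the median level. A range over 3 arrays and a difference of group means are unlike measures. These counts therefore do not show that the spread exceeded a group effect. All genes had the same order, with median SDs of 0.08 among MondoA shRNA arrays and 0.03 among control arrays, and the groups differ in size. The MondoA shRNA SD was the larger in 11345 of all 18417 genes and in 6579 of the 9208 genes above the median level. Among lysosomal enzymes and membrane proteins, MondoA shRNA array 2 held the single highest value in 12 of 26 genes (46.2%) and array 1 the single lowest in 11 (42.3%). Array 2 was the highest in 36.8% and array 1 the lowest in 35.3% of the 9208 genes above the median level, to which 36 of the 42 belong. Autophagy genes and MiT factors had array 2 highest in 4 of 16 and array 1 lowest in 3 of 16. Both arrays stood out in bright genes at large too, and the lysosomal genes were not tested against them.

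**Figure D4:**
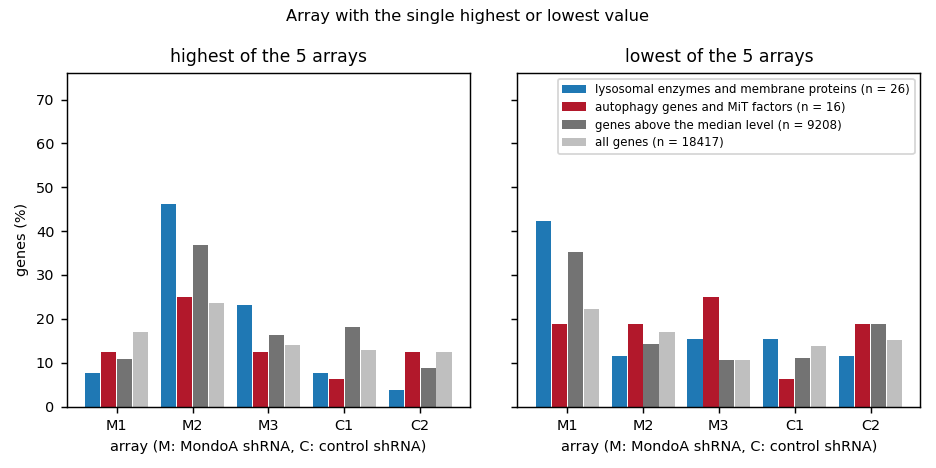
Share of genes in percent (vertical axis, from 0) whose single highest (left panel) or single lowest (right panel) value fell on each array, for lysosomal enzymes and membrane proteins, autophagy genes with MiT factors, genes above the median level and all genes. M1 to M3 are MondoA shRNA arrays and C1 and C2 control arrays. Blue bars peak at M2 in the left panel (46.2%) and at M1 in the right panel (42.3%), where the dark grey bars of bright genes also peak.

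The 7 genes with an E-box core in the promoter window had differences from -0.08 to 0.28 and a median of 0.01, and the 28 genes whose windows lack it had differences from -0.24 to 0.24 and a median of 0.01. LAMP1, with the most cores in the stretches printed above, differed by 0.01. GAA and CTSD, with 2 and 1 cores, were the 2 highest of the 7.

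Further genes of the pathway, listed by function and not by how they moved, numbered 142 measured of 152. None passed the adjusted threshold by limma, and 7 stood at an unadjusted p under 0.05, 1 higher and 6 lower. Over all genes the share was 3.73%, with 285 higher and 402 lower, and of the 9208 genes above the median level, to which 123 of the 142 belong, 215 were higher and 328 lower. The groups did not overlap in 8 of the 142 on the higher and 18 on the lower side. This compares with 10.0% of all genes, 894 higher and 954 lower, and with 665 higher and 770 lower of the genes above the median level. These counts are descriptions, and the lists were not tested against other genes. Of the 18 proton pump subunits, which acidify the lysosome, 1 was among the 7: ATP6V0E1 read 8.57, 8.50 and 8.53 in MondoA shRNA arrays 1, 2 and 3, against 8.35 and 8.38 in control arrays 1 and 2, a difference of 0.17 (unadjusted p = 0.00392). The 17 genes of delivery to lysosomes held none. Of 24 further hydrolases, CTSO, a cysteine cathepsin, read 5.02 ± 0.29 in MondoA shRNA and 5.61 ± 0.02 in control arrays, a difference of -0.58 (unadjusted p = 0.0476).

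Of 23 further membrane proteins, 2 were lower at that threshold. NPC1, the cholesterol exporter that takes its cargo from NPC2, read 5.96, 6.25 and 6.56 in MondoA shRNA arrays 1, 2 and 3, against 7.49 and 7.24 in control arrays 1 and 2. Its difference of -1.11 (95% interval -1.76 to -0.46, unadjusted p = 0.0103, adjusted p = 0.833 by limma) was the largest of all lysosome and autophagy genes examined here. NPC1 lies on chromosome 18, where 110 of 110 genes with a mean level above 5 were lower in the MondoA shRNA arrays, with a median of -0.42. The part of that shift in NPC1 was not tested. CTNS, the cystine exporter, on chromosome 17, read 6.41 ± 0.20 in MondoA shRNA and 6.83 ± 0.06 in control arrays, a difference of -0.42 (unadjusted p = 0.0434).

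Among 24 genes of nutrient sensing at the lysosome, SESN2 and CASTOR1 were lower at the unadjusted threshold. Their products restrain the kinase complex mTORC1 when leucine or arginine is short. SESN2 read 5.00, 5.12 and 4.85 in MondoA shRNA arrays 1, 2 and 3, against 5.52 and 5.63 in control arrays 1 and 2, a difference of -0.58 (unadjusted p = 0.00686). CASTOR1 read 4.88 ± 0.02 in MondoA shRNA and 5.05 ± 0.00 in control arrays, a difference of -0.17 (unadjusted p = 0.00118, adjusted p = 0.436 by limma). The list's median was -0.06, with 10 above 0 and 14 below.

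Of 36 further autophagy genes, 1 stood at that threshold. STX17, which fuses autophagosomes with lysosomes, read 5.69 ± 0.04 in MondoA shRNA and 5.88 ± 0.06 in control arrays, a difference of -0.20 (unadjusted p = 0.0137). PIK3C3 and EPG5, chosen after their values were seen because both lie on chromosome 18, also had every MondoA shRNA array below both control arrays. PIK3C3, the catalytic partner of Beclin 1, read 6.15 ± 0.34 in MondoA shRNA and 6.82 ± 0.14 in control arrays, a difference of -0.67 (95% interval -1.38 to 0.04). EPG5, a tether for autophagosomes, differed by -0.50 (95% interval -1.21 to 0.22). BECN1 itself lies on chromosome 17.

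**Figure D5:**
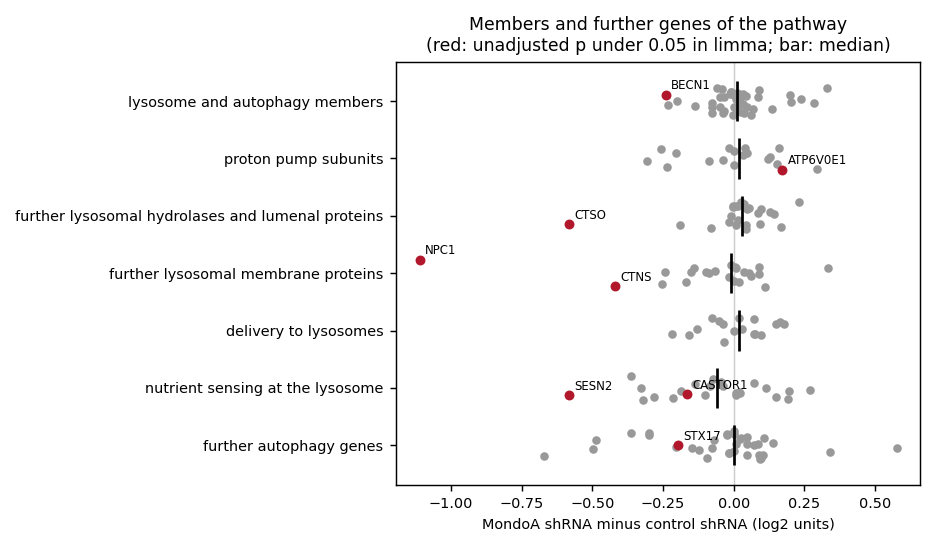
MondoA shRNA minus control shRNA in log2 units (horizontal axis) for the 42 genes (top row) and 6 lists of further lysosome and autophagy genes, 1 point per gene, with red for an unadjusted p under 0.05 in limma and a bar at each median. Every median lies near 0, between -0.06 and 0.03, and NPC1 at -1.11 is the farthest point.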

How the data were processed

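Affymetrix arrays of 5 clones were used (3 MondoA shRNA, 2 control). The authors summarised probes with RMA in Affymetrix Expression Console 1.1, per the submitters' processing notes, and deposited 1 value per probe set. The deposited values were read as log2, as RMA gives. The base, filters, annotation build and detection calls are not given in the sources used here, and the number of arrays limits the precision. Of 33297 probe sets, 19460 had exactly 1 symbol, and names were updated by Entrez number to RefSeq (GRCh38.p14, 19429 matched). The brightest probe set per gene left 18417 genes.

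Groups followed the source labels. All genes were fitted in limma 3.58.1 (R 4.3.3, statmod 1.5.0), two-sided, with empirical Bayes moderation and Benjamini-Hochberg adjustment, at 0.05. The fit was tested on simulated independent normal values with known added shifts. Values repeated on only some arrays were not modelled, so the simulation does not show how the fit behaves on such genes. Values on every array are given for the MiT factors and, in each other role, for genes at unadjusted p under 0.05 and the 3 of largest difference. LAMP1 is given as well, though its difference was the smallest of its role. In further lists at most 3 genes at that p are named, and exceptions are stated. Alternatives covered probe set choice, normalization, filters, moderation, array weights, the replicate number as a block and each array left out. Deviations of same-numbered clones from their group means correlated at -0.287 and -0.233, and the numbers were not used as pairs. With 2 control arrays these deviations mirror each other, so both values rest on the same control contrast. The members and lists were chosen with earlier results of these data known. Sequences came from RefSeq.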

Additional observations from a re-analysis of the deposited data

How the results depend on the processing

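The count of 0 lysosome and autophagy genes past the adjusted threshold in limma (1 at unadjusted p under 0.05) stayed at 0 under all 14 alternatives tried. The count at unadjusted p under 0.05 became 0 over the 13 members with no equal values, 0 without moderation, 2 with the replicate block and 0 to 1 with 1 array left out. BECN1 was no longer among them without MondoA shRNA array 1, MondoA shRNA array 2 or either control array. With the replicate block CTSD joined BECN1, at 0.21. The labels do not say what clones of the same number share. Their deviations correlated at -0.287 and -0.233 across genes, both values resting on the same control contrast. The block fit sets MondoA shRNA array 3 aside. The count over all genes became 2 after a second quantile normalisation, 2 after median centring, 3 without moderation, 60 with no equal values and 0 to 752 with 1 array left out (752 without control array 1, 454 without control array 2, where the 1 control left takes its spread from the MondoA shRNA arrays). In the further lists, 7 genes became 12 with quantile normalisation, 13 with array weights and 5 to 17 with 1 array left out (17 without MondoA shRNA array 2, 11 without control array 1). The causes were not tested. The median of lysosomal enzymes and membrane proteins ran from -0.01 to 0.03. Array weights, which favour some arrays, moved single genes without a call: NEU1 to 0.12, NPC2 to 0.08 and WIPI1 to -0.08.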
